A study of Mus musculus with 6 samples.

Results

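*Sprr1a* and 9 other genes of proteins that injured peripheral neurons are known to make were followed in small pools of mouse spinal cord motor neurons after a crush of the sciatic nerve. They were found by gene symbol, 10 of the 53858 genes in the deposited count table, each with 1 row. The double-labelled pools held neurons with both lipophilic tracers, DiO placed at a proximal site of the nerve on day 0 and DiI placed at a distal site on day 2, so their regrowing axons were among the first to arrive there. The DiO-only pools held injured neurons with DiO and without DiI. Cells of both groups came from wild-type mice and were collected on day 6 after the crush, and no uninjured pool was part of the comparison. The labels give 3 pools per group with 10 to 15 picked cells in each and do not say that pools came from separate animals, and every p below therefore rests on how far these pools scatter, which may be technical.

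When a peripheral axon is cut or crushed, the cell body switches on a set of genes that includes transcription factors, structural proteins of the growth cone and a group of effectors at the cell surface or outside the cell. *Sprr1a* encodes a small proline-rich protein of the cornified envelope of skin, and its transcript is among those that axotomised sensory and motor neurons induce most strongly. *Ecel1* encodes a neprilysin-like endopeptidase known as damage-induced neuronal endopeptidase. *Plat* and *Plaur* encode tissue plasminogen activator and the receptor of urokinase, *Cd44* a hyaluronan receptor, *Lgals1* the lectin galectin-1, *Flrt3* a leucine-rich repeat adhesion protein and *Nrn1* the lipid-anchored growth factor neuritin. *Tgm1* encodes the transglutaminase that cross-links small proline-rich proteins in keratinocytes, and *Smagp* a small transmembrane adhesion glycoprotein.

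The promoter windows of the genes are shown first, because the transcription factors of the injury response, Jun and Atf3 among them, bind the AP-1 motif or its relative CRE. RefSeq windows on GRCm38.p6, which run from 250 bases before to 50 bases after the start of a gene, were given for 7 of the 10 genes. The windows of *Nrn1*, *Lgals1* and *Plat* are not analysed here. Motifs were searched on both strands as AP-1 (TGANTCA), CRE (TGACGTCA), STAT (TTCNNNGAA) and C/EBP (TTGCNNAA), and on the plus strand of the gene as a TATA box (TATAAA), with no overlap between matches in the windows printed here. The first 2 of these lines are printed because they hold the AP-1 matches of the set, and the third because *Flrt3* had the smallest p of the set. Capitals mark every match to any of the 5 motifs.
*Sprr1a* (chr3:92485832-92486131, minus strand): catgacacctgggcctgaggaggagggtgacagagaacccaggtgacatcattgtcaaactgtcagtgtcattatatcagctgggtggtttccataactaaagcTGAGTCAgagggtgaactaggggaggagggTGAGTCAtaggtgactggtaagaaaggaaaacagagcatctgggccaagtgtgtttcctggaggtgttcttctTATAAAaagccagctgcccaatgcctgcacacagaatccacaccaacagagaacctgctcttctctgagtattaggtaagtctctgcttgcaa
*Plaur* (chr7:24462233-24462532, plus strand): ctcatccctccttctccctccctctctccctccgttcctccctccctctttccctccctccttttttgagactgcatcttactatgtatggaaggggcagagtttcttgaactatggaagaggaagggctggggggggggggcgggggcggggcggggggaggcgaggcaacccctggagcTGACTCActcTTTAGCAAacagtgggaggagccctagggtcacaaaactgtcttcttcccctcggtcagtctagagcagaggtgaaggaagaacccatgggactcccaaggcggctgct
*Flrt3* (chr2:140671427-140671726, minus strand): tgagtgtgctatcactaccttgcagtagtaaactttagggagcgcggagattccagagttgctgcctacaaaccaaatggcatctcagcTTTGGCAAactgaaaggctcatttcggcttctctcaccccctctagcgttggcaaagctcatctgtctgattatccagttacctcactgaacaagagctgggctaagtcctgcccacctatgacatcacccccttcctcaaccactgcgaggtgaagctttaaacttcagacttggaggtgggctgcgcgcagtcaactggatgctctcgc

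*Sprr1a* had 2 AP-1 matches, both reading TGAGTCA, that began 146 and 116 bases before its start, and a TATA box that began 43 bases before it. *Plaur* had 1 AP-1 match that began 69 bases before its start, followed by a C/EBP match. Of 32851 windows of the same length, 7.81% held at least 1 AP-1 match and 0.460% held 2 or more. *Flrt3* had a C/EBP match, which 10.8% of windows held. The windows of *Ecel1*, *Cd44* and *Smagp* had no match to the 5 motifs. *Tgm1* had 2 STAT matches in 1 of its windows, where 0.457% of all windows held 2 or more, and a C/EBP match in the other. None of the 7 genes had a CRE match, which 1.79% of windows held. A match describes the letters of the window and not a bound site.

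Total counts ran from 2997714 to 6563403 in double-labelled pools and from 3747145 to 6505086 in DiO-only pools. Genes with at least 1 count numbered 15657 to 16467 in double-labelled pools and 17229 to 22118 in DiO-only pools, without overlap. Levels are given as CPM, a gene's counts as a share of the library total after scaling with TMM factors. Double-labelled pool 1 stood apart on the first principal component of the 12954 tested genes (33.8% of the variance), with a score of 123 and the other 5 pools at -64.0 to 0.231. The summed CPM of 12 motor neuron markers, all of them tested, ran from 30188 to 37169 in double-labelled pools and from 23344 to 44227 in DiO-only pools. All 13 tested oligodendrocyte markers (of 14) were higher in double-labelled pools, with sums of 1478 to 4959.7 CPM against 289.6 to 592 CPM in DiO-only pools. So were 9 of 11 tested astrocyte markers (of 12), with sums of 1081 to 2363 CPM against 873 to 1286 CPM. *Aldoc* (342 to 1711 CPM) and *S100b* (236 to 907 CPM) made up most of the astrocyte sum in every pool. The median log2 fold change was 2.45 for the tested oligodendrocyte markers and 2.53 for the tested astrocyte markers. Endothelial and pericyte markers summed to 6.59 to 12.9 CPM in double-labelled pools and 13.7 to 62.4 CPM in DiO-only pools. Schwann cell markers summed to 796 to 1084 CPM in double-labelled pools and 776 to 954 CPM in DiO-only pools, and fibroblast markers to 70.3 to 369.7 CPM and 198 to 384 CPM in double-labelled and DiO-only pools. Interneuron markers summed to 35.2 to 50.5 CPM in double-labelled pools and 183 to 6067 CPM in DiO-only pools, where *Npy* in pool 2 and *Penk* in pool 1 made up most. *Npy*, at 5948 CPM in DiO-only pool 2, also stands in the list of other regeneration-associated genes used below, so its level does not mark interneurons alone. The interneuron markers *Slc32a1* and *Slc6a5* had 0 counts in DiO-only pool 2, and 74 and 538 counts in DiO-only pool 3. *Gad1* and *Gad2* did not follow them, with 6 and 0 counts in DiO-only pool 3 and their most, 17 and 23, in double-labelled pool 1. *Slc17a6* had 429 counts in DiO-only pool 1 and 3 to 82 in the other pools. Of the markers in these lists, 0 passed edgeR's test over all genes. The part of these differences in the results below was not tested. In bulk pools, fewer cells of a type and less RNA per cell cannot be told apart.

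Mean CPM of the tested genes of this group was lower in double-labelled than in DiO-only pools, and none passed edgeR's test over all genes. *Sprr1a* averaged 1828 ± 1698 CPM in double-labelled pools and 5723 ± 4202 CPM in DiO-only pools (SD, n = 3 each). *Flrt3*, at 29.6 ± 0.754 and 61.3 ± 15.4 CPM in double-labelled and DiO-only pools, was the steadiest of them (SD, n = 3 each). The filter on low counts left 7 of the 10 genes, *Sprr1a*, *Ecel1*, *Flrt3*, *Lgals1*, *Cd44*, *Plaur* and *Plat*. In edgeR's quasi-likelihood test, with adjustment over all 12954 tested genes, 0 of these 7 passed, as did 0 (0%) of all tested genes. At an unadjusted p under 0.05 there were 4 of the 7, *Flrt3*, *Sprr1a*, *Cd44* and *Ecel1*, all lower in double-labelled pools, where 2.63% of all tested genes were lower at that level. *Ecel1* lay at this threshold, with an unadjusted p of 0.0498 in edgeR. All 7 had a log2 fold change below 0, with a median of -0.79, where 48.7% of all tested genes were below 0 and their median was 0.02. Over all tested genes, 753 (5.81%) had an unadjusted p under 0.05 in either direction, and 3.18% were higher in double-labelled pools at that level. DESeq2 on unfiltered counts called 75 genes (0.264%), none of the 10 among them, and edgeR without the filter 79 (0.277%), again none of the 10. With the replicate number as a block edgeR called 0.178% of genes, *Sprr1a* among them. The genes were chosen with earlier results of these samples known, so these counts are a description of the set. The count of 4 rested on single pools. It was 1 of 8 without double-labelled pool 1 and 1 of 9 without DiO-only pool 2 (*Flrt3* in both cases). It was 1 of 9 without DiO-only pool 3 (*Sprr1a*) and 2 of 8 without double-labelled pool 2 (*Sprr1a* and *Flrt3*). Without double-labelled pool 1, the one apart on the first component, the log2 fold change was -1.23 for *Sprr1a*, -0.57 for *Ecel1*, -1.05 for *Flrt3*, -0.79 for *Cd44*, -0.76 for *Lgals1*, -0.37 for *Plaur* and -1.19 for *Plat*.

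**Figure D1:**
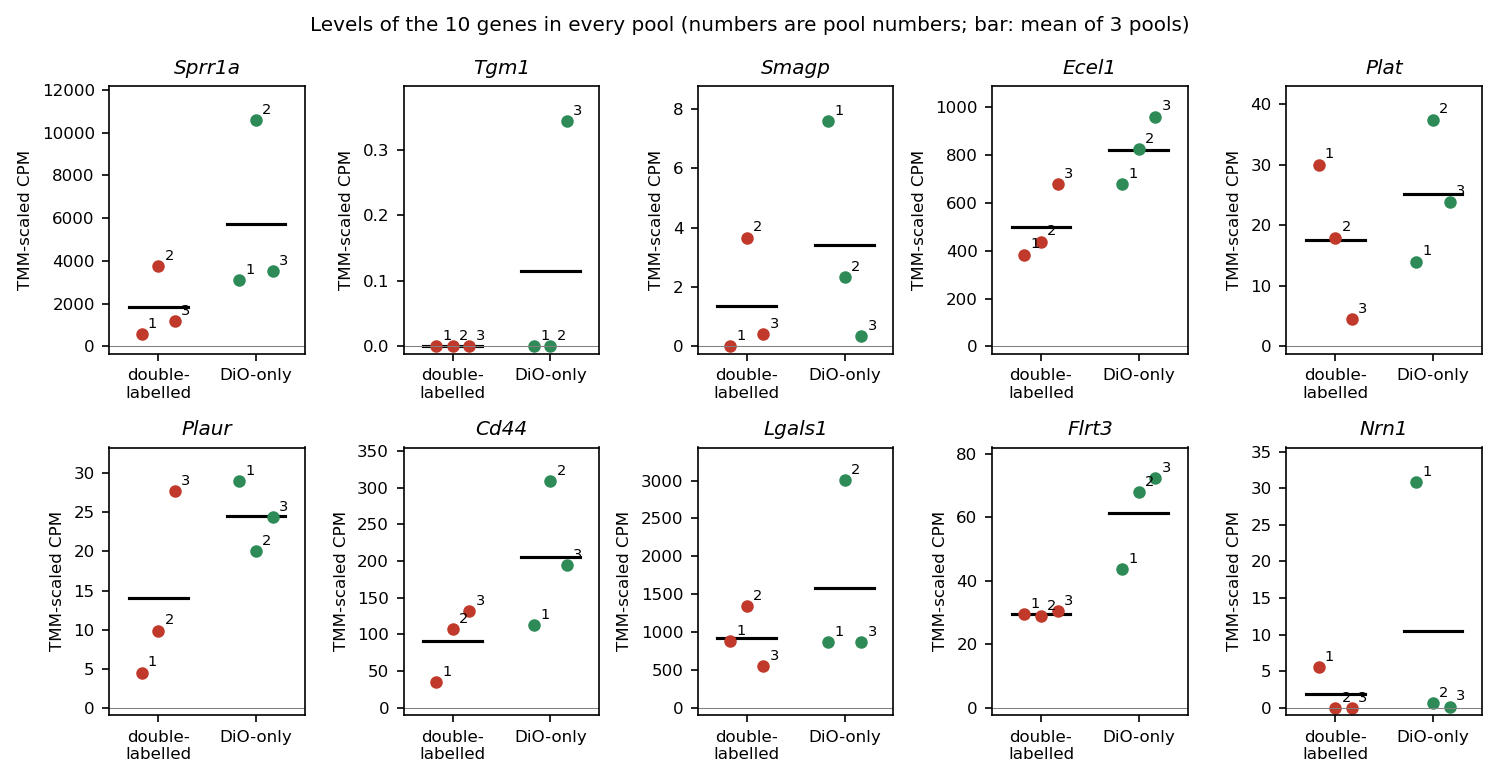
Level of each of the 10 genes in TMM-scaled CPM (vertical axis, linear) in the 3 double-labelled pools (red) and the 3 DiO-only pools (green), with the pool number beside each point and the mean of 3 pools as a bar. *Flrt3* and *Ecel1* have groups that do not overlap, *Sprr1a* has double-labelled pool 2 at 3758 CPM inside the DiO-only range, and *Nrn1* is carried by pool 1 of each group.

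*Sprr1a* (ENSMUSG00000050359; mm10 chromosome 3, 92483952 to 92485895, minus strand) had 559.5, 3758 and 1168 CPM in double-labelled pools 1, 2 and 3, and 3096, 10569 and 3504 CPM in DiO-only pools 1, 2 and 3. Double-labelled pools 1 and 3 lay below every DiO-only pool, pool 2 lay above DiO-only pools 1 and 3, and DiO-only pool 2 stood far above the rest. The log2 fold change was -1.65 ± 0.68 (SE; edgeR adjusted p = 0.775 over all tested genes). Without DiO-only pool 2 it was -0.84, and without double-labelled pool 2 it was -2.76. The transcript was abundant throughout. Its rank by counts among all genes was 151, 21 and 59 in double-labelled pools 1, 2 and 3, and 26, 12 and 20 in DiO-only pools 1, 2 and 3. The ratio of *Sprr1a* to *Gap43*, a growth cone protein gene that injured neurons also induce, was 0.613, 3.41 and 1.02 in double-labelled pools 1, 2 and 3, and 1.58, 3.43 and 1.83 in DiO-only pools 1, 2 and 3. The 2 pools numbered 2 thus had the highest ratio of their group, and the groups overlapped.

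Other small proline-rich genes had few counts beside *Sprr1a*. The 16 other *Sprr* genes of the table had 1060 counts over all 6 pools, against 94955 for *Sprr1a*, and 9 of the 16 had any count. *Sprr1b*, its closest relative, had 0 counts in every pool. Most of the 1060 counts belonged to *Sprr2j-ps* (chromosome 3, 92418082 to 92419396), named after its values were seen. It had 3.08, 12.4 and 23.3 CPM in double-labelled pools 1, 2 and 3, and 31.5, 54.1 and 48.5 CPM in DiO-only pools 1, 2 and 3, with groups that did not overlap (log2 fold change -1.77 ± 0.62, SE; edgeR adjusted p = 0.698). Reads of near-identical family members may be split or dropped by the authors' counting.

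*Tgm1* (ENSMUSG00000022218; chromosome 14, 55700009 to 55713926, minus strand) had 0 counts in all 3 double-labelled pools and 0, 0 and 2 counts in DiO-only pools 1, 2 and 3, so it was below the floor of 3 counts everywhere and no fold is given. Of 28 other small proline-rich and cornified envelope genes 5 were tested and 0 passed in edgeR, with 4 lower, 1 higher and a median of -0.30 on the log2 scale. The lower genes of smallest p with at least 5 CPM were *Jup*, of the junction protein plakoglobin, at 66.5 ± 45.3 CPM in double-labelled pools and 132 ± 93.3 CPM in DiO-only pools, and *Cstb*, of the protease inhibitor cystatin B, at 34.5 ± 23.1 and 42.5 ± 22.3 CPM in double-labelled and DiO-only pools (SD, n = 3 each). *Tchh*, of the hair follicle protein trichohyalin, was the 1 gene of the list with an unadjusted p under 0.05, at 0.190 ± 0.183 CPM in double-labelled pools and 5.09 ± 0.873 CPM in DiO-only pools (SD, n = 3; edgeR adjusted p = 0.675). It passed the filter on low counts only through the DiO-only pools, so its p is partly set by the filter. Keratinocyte markers summed to 16.2 to 27.7 CPM in double-labelled pools and 14.0 to 32.99 CPM in DiO-only pools, and *Krt5*, *Krt15*, *Cdh1* and *Epcam* had 0 counts in all 6 pools.

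Of 8 other transglutaminase genes 2 were tested, both lower, and 0 passed in edgeR. *Tgm2*, of the widely expressed tissue transglutaminase, had 5.75, 0.366 and 4.82 CPM in double-labelled pools 1, 2 and 3, and 10.6, 10.0 and 25.6 CPM in DiO-only pools 1, 2 and 3 (log2 fold change -2.04 ± 0.89, SE; edgeR adjusted p = 0.826). Pools of its groups did not overlap.

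*Smagp* (ENSMUSG00000053559; chromosome 15, 100621339 to 100636940, minus strand) had 0, 10 and 3 counts in double-labelled pools 1, 2 and 3, and 52, 7 and 2 counts in DiO-only pools 1, 2 and 3. In CPM these were 0, 3.66 and 0.402 in double-labelled pools and 7.59, 2.34 and 0.344 in DiO-only pools. The 0 in double-labelled pool 1 allows up to 0.616 CPM, the level of 3 counts, which covers counting error only. The groups overlapped, and the gene did not pass the filter.

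*Ecel1* (ENSMUSG00000026247; chromosome 1, 87147655 to 87156521, minus strand) had 384, 438 and 677 CPM in double-labelled pools 1, 2 and 3, and 679.5, 824 and 960.2 CPM in DiO-only pools 1, 2 and 3. The groups did not overlap, but the highest double-labelled pool and the lowest DiO-only pool were nearly level, and the order of these was lost with scaling to total counts. The log2 fold change was -0.72 ± 0.33 (SE; edgeR adjusted p = 0.858). Among the 7 tested genes 2 had groups that did not overlap, *Ecel1* and *Flrt3*, both lower in double-labelled pools, where 7.07% of all tested genes were lower and 5.86% higher in this way. The other M13 endopeptidases, the protein family of *Ecel1*, had no shared direction. Of 6 genes 3 were tested, 2 lower and 1 higher, and 0 passed in edgeR. The endothelin-converting enzyme genes *Ece1* and *Ece2* had 19.9 ± 7.04 and 9.45 ± 4.88 CPM in double-labelled pools, and 22.5 ± 4.04 and 6.28 ± 1.57 CPM in DiO-only pools (SD, n = 3 each).

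The protease gene *Plat* (ENSMUSG00000031538; chromosome 8, 22757727 to 22782844, plus strand) had 30.0, 17.9 and 4.56 CPM in double-labelled pools 1, 2 and 3, and 14.0, 37.4 and 23.9 CPM in DiO-only pools 1, 2 and 3. The groups overlapped widely (log2 fold change -0.52 ± 0.65, SE; edgeR adjusted p = 0.978). This value moved with single pools, to -0.06 without double-labelled pool 3, -0.11 without DiO-only pool 2 and -0.82 without DiO-only pool 1.

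*Plaur* (ENSMUSG00000046223; chromosome 7, 24462484 to 24475968, plus strand) had 4.52, 9.88 and 27.7 CPM in double-labelled pools 1, 2 and 3, and 29.0, 20.0 and 24.4 CPM in DiO-only pools 1, 2 and 3. Double-labelled pools 1 and 2 lay below the DiO-only pools, and pool 3 lay among them (log2 fold change -0.79 ± 0.63, SE; edgeR adjusted p = 0.960). Without double-labelled pool 3 the value was -1.80, and without double-labelled pool 1 it was -0.37. The ligand and the substrate of this system were barely detected. *Plau*, of urokinase, and *Plg*, of plasminogen, each had 1 count over all 6 pools.

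Of 25 other genes of the plasminogen activator system 14 were tested, 7 lower and 7 higher, and 0 passed in edgeR. Their median log2 fold change was 0.06. *Serpinb2*, of the inhibitor PAI-2, had 0 counts in every double-labelled pool and 7.15, 81.5 and 2.58 CPM in DiO-only pools 1, 2 and 3. Against a floor of 3 counts per library its mean was at least 43.1-fold lower in double-labelled pools (edgeR adjusted p = 0.357). DiO-only pool 2 carried that bound, which was 6.89-fold without it. *Serpinb2* passed the filter on low counts only through the DiO-only pools, so its p and lack of overlap are partly set by the filter. *Anxa2*, of an annexin that binds plasminogen and its activator at the cell surface, had 960.4, 737 and 823 CPM in double-labelled pools 1, 2 and 3, and 1993, 1664 and 2346 CPM in DiO-only pools 1, 2 and 3 (edgeR adjusted p = 0.476). In the other direction, *Serpine2*, of a serpin that inhibits thrombin and plasminogen activators, had 75.6, 17.9 and 76.1 CPM in double-labelled pools 1, 2 and 3, and 11.96, 2.34 and 17.0 CPM in DiO-only pools 1, 2 and 3 (edgeR adjusted p = 0.617). *Mmp9*, of a matrix metalloproteinase, had 69.2 ± 24.6 CPM in double-labelled pools and 13.7 ± 13.8 CPM in DiO-only pools (SD, n = 3; edgeR adjusted p = 0.617). The pools of the groups did not overlap for any of these 4 genes, which were picked by their p. For *Serpine2* the nearest pools were almost level, at 17.9 and 17.0 CPM. Of the 14 tested genes of the list, 4 were lower and 4 higher without overlap, beside 7.07% and 5.86% of all tested genes. Another pair, *Vldlr* and *Eno1*, named after their values were seen, had an unadjusted p under 0.05 in edgeR. *Vldlr*, of a lipoprotein receptor, had 10.7, 27.4 and 13.4 CPM in double-labelled pools 1, 2 and 3, and 33.8, 36.4 and 38.1 CPM in DiO-only pools 1, 2 and 3. *Eno1*, of the glycolytic enzyme enolase, had 681 ± 314 CPM in double-labelled pools and 1509 ± 523 CPM in DiO-only pools (SD, n = 3 each). Astrocytes and endothelial cells also make several of these proteins, and the marker sums of those cells are given above.

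*Cd44* (ENSMUSG00000005087; chromosome 2, 102811141 to 102901665, minus strand) had 35.5, 108 and 131 CPM in double-labelled pools 1, 2 and 3, and 113, 309 and 195 CPM in DiO-only pools 1, 2 and 3. Only double-labelled pool 3 reached into the DiO-only range, above DiO-only pool 1 (log2 fold change -1.16 ± 0.50, SE; edgeR adjusted p = 0.796). Without DiO-only pool 2 the value was -0.74. A list of 20 genes held hyaluronan genes, partners of CD44 inside the cell and other listed partners such as *Spp1*. Of these 19 were in the table and 8 were tested, 6 lower and 2 higher, and 0 passed in edgeR. *Nf2*, of the growth suppressor merlin that binds the tail of CD44, had 20.5, 21.96 and 19.4 CPM in double-labelled pools 1, 2 and 3, and 35.6, 59.8 and 42.1 CPM in DiO-only pools 1, 2 and 3. Its groups did not overlap (log2 fold change -1.15 ± 0.39, SE; edgeR adjusted p = 0.683). *Msn*, of the related linker moesin, had 156 ± 57.2 and 209 ± 45.7 CPM in double-labelled and DiO-only pools, and *Hyal2*, of a hyaluronidase, had 21.4 ± 10.6 and 13.6 ± 1.07 CPM in double-labelled and DiO-only pools (SD, n = 3 each). Macrophages and microglia carry *Cd44* and *Plaur* as well. The summed CPM of 18 of their markers was 54.2 to 136 in double-labelled pools and 97.9 to 105 in DiO-only pools. Of the 18, 4 (*Cd68*, *Ptprc*, *Mrc1* and *Itgam*) had 0 counts in all 3 double-labelled pools, and *Mrc1* and *Itgam* had at most 2 in a DiO-only pool. In DiO-only pools 1, 2 and 3, *Cd68* had 15, 3 and 28 counts and *Ptprc* 23, 1 and 6. Single genes of this list did not share a pattern, and those named here were picked after their values were seen. Double-labelled pool 3 had the most counts of *Cx3cr1*, *Tmem119*, *P2ry12*, *Ctss* and *C1qa*. *Cx3cr1*, for example, had 77 counts there, 0 in double-labelled pools 1 and 2, and 0, 3 and 0 in DiO-only pools 1, 2 and 3. *Tyrobp* and *Aif1* had the most counts in double-labelled pool 1 (43 and 22), and *C1qb* in DiO-only pool 1 (120). *Csf1r* was lower in every double-labelled pool, at 14.6 to 16.6 CPM against 23.8 to 28.4 CPM in DiO-only pools. The part of these markers in the values of *Cd44* and *Plaur* was not tested.

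*Lgals1* (ENSMUSG00000068220; chromosome 15, 78926725 to 78930465, plus strand) had 885, 1342 and 547 CPM in double-labelled pools 1, 2 and 3, and 870.1, 3001 and 871 CPM in DiO-only pools 1, 2 and 3. Double-labelled pools 1 and 2 lay above DiO-only pools 1 and 3, and DiO-only pool 2 alone held the mean of its group up. The log2 fold change was -0.77 ± 0.52 (SE; edgeR adjusted p = 0.942), and without DiO-only pool 2 it turned to 0.095. Of 12 other galectins and galectin partners 8 were tested, 4 lower and 4 higher, and 0 passed in edgeR. *Lgals3*, of galectin-3, had 22.4, 31.8 and 29.7 CPM in double-labelled pools 1, 2 and 3, and 44.3, 80.2 and 195 CPM in DiO-only pools 1, 2 and 3, with groups that did not overlap (log2 fold change -1.93 ± 0.51, SE; edgeR adjusted p = 0.507). *Plxna4*, of a semaphorin receptor, had 211 ± 103 and 343 ± 80.6 CPM in double-labelled and DiO-only pools. *Lgals3bp*, of a secreted galectin-binding glycoprotein, had 22.2 ± 17.3 and 6.84 ± 3.33 CPM in double-labelled and DiO-only pools, and *Lgals8*, of galectin-8, had 74.2 ± 9.87 and 54.2 ± 10.1 CPM (SD, n = 3 each).

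*Flrt3* (ENSMUSG00000051379; chromosome 2, 140650914 to 140671469, minus strand) had 29.6, 28.9 and 30.4 CPM in double-labelled pools 1, 2 and 3, and 43.6, 67.8 and 72.3 CPM in DiO-only pools 1, 2 and 3. The double-labelled pools were almost equal, the DiO-only pools all lay above them, and the groups did not overlap. The log2 fold change was -1.05 ± 0.36 (SE; edgeR adjusted p = 0.692) and stayed between -1.25 and -0.92 in the 15 alternatives. *Flrt3* lies inside *Macrod2*, on the opposite strand and with no shared exon. *Macrod2* had 360, 126 and 340 counts in double-labelled pools 1, 2 and 3, and 211, 63 and 145 counts in DiO-only pools 1, 2 and 3.

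FLRT proteins bind the netrin receptors of the UNC5 family, the latrophilins and, through these, the teneurins. Of 15 such genes 14 were tested, 5 lower and 9 higher, and 0 passed in edgeR. Their median log2 fold change was 0.20. The paralogue *Flrt2* had 0, 0 and 0.536 CPM in double-labelled pools 1, 2 and 3, and 4.38, 12.03 and 13.6 CPM in DiO-only pools 1, 2 and 3, with groups that did not overlap (edgeR adjusted p = 0.486). It passed the filter on low counts only through the DiO-only pools, so its p and lack of overlap are partly set by the filter. *Unc5c* had 62.3 ± 31.1 CPM in double-labelled pools and 111 ± 35.2 CPM in DiO-only pools (SD, n = 3; edgeR adjusted p = 0.885). The teneurin gene *Tenm3* had 52.6, 48.3 and 39.7 CPM in double-labelled pools 1, 2 and 3, and 32.5, 10.7 and 9.97 CPM in DiO-only pools 1, 2 and 3 (log2 fold change 1.39 ± 0.51, SE; edgeR adjusted p = 0.720). *Robo1*, of a Slit receptor, had 33.9 ± 1.94 CPM in double-labelled pools and 16.6 ± 5.06 CPM in DiO-only pools (SD, n = 3; edgeR adjusted p = 0.785). *Tenm3* and *Robo1*, picked by their p, also had groups that did not overlap, higher in double-labelled pools. Of the 14 tested genes of the list, 1 was lower and 3 higher without overlap, beside 7.07% and 5.86% of all tested genes.

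*Nrn1* (ENSMUSG00000039114; chromosome 13, 36725361 to 36735131, minus strand) had 27, 0 and 0 counts in double-labelled pools 1, 2 and 3, and 211, 2 and 1 counts in DiO-only pools 1, 2 and 3. Pool 1 of each group held nearly all of them, and the groups overlapped. In CPM these were 5.55, 0 and 0 in double-labelled pools and 30.8, 0.668 and 0.172 in DiO-only pools, and the 0 in double-labelled pools 2 and 3 allows up to 1.10 and 0.402 CPM. The gene did not pass the filter. Its exons overlap those of *Fars2* on the opposite strand, which had 31, 9 and 9 counts in double-labelled pools 1, 2 and 3, and 221, 24 and 49 counts in DiO-only pools 1, 2 and 3. The difference between the counts of *Fars2* and *Nrn1* was 4, 9 and 9 in double-labelled pools and 10, 22 and 48 in DiO-only pools, and pool 1 had the most counts of both genes in each group. The strand setting of the counting is not given in the sources used here, and reads of the shared part cannot be told apart. Of 8 other neuritin-family and activity-regulated genes 6 were tested, 1 lower and 5 higher, and 0 passed in edgeR. The synaptic receptor gene *Nptxr* had 26.5 ± 21.7 and 15.7 ± 1.45 CPM in double-labelled and DiO-only pools, and the neurotrophin gene *Bdnf* had 45.6 ± 45.5 and 33.4 ± 16.3 CPM (SD, n = 3 each).

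**Figure D2:**
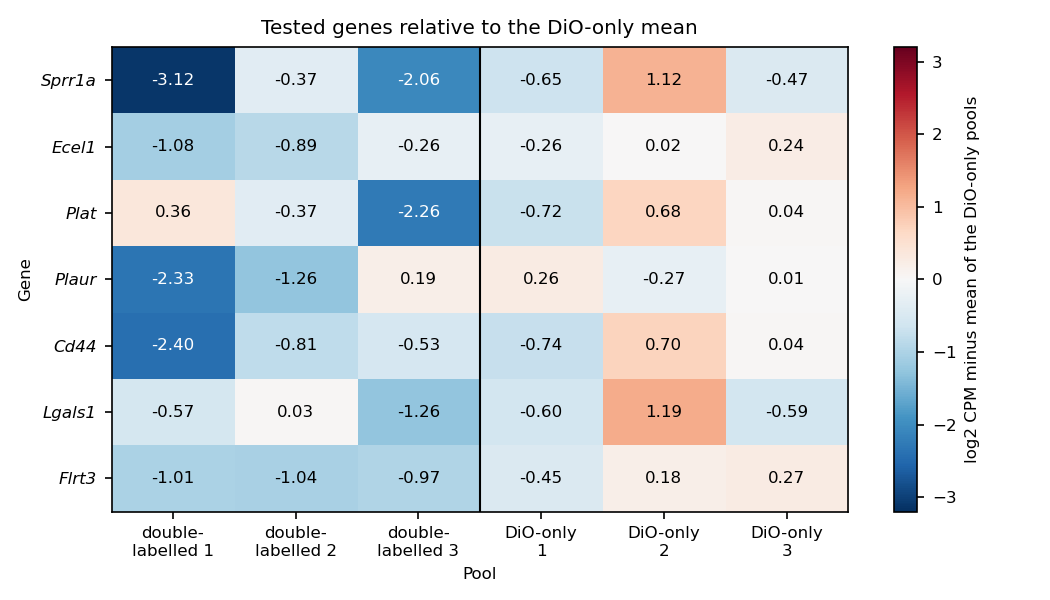
Level of the 7 tested genes in each pool as log2 CPM minus the mean log2 CPM of the DiO-only pools, with double-labelled pools left of DiO-only pools and the value printed in each cell. Each double-labelled pool has 6 of 7 genes below 0 and a different exception, and DiO-only pool 1 has 6 of 7 below 0 as well.

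The effectors were not low together in every double-labelled pool. Relative to the mean log2 CPM of the DiO-only pools, 6 of the 7 tested genes were lower in each double-labelled pool, where 51.3, 51.3 and 48.9% of all tested genes were lower in double-labelled pools 1, 2 and 3. The exception was *Plat* in double-labelled pool 1, *Lgals1* in pool 2 and *Plaur* in pool 3. DiO-only pool 1 had 6 of 7 genes below this mean too, with a median of -0.60 across the genes, against medians of -1.08, -0.81 and -0.97 in double-labelled pools 1, 2 and 3. DiO-only pool 2 had 1 of 7 below it and a median of 0.68, so the spread among DiO-only pools was large for this set.

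The effectors also differed in how far pools of 1 group lay apart. The within-group SD of log2 CPM was 0.28 for *Flrt3* and 0.35 for *Ecel1*, below the median of 0.66 over all tested genes and of 0.42 over the 3188 tested genes whose mean log2 CPM was at least that of 50 CPM. It was 1.20 for *Sprr1a*, 1.08 for *Plat*, 0.91 for *Plaur*, 0.88 for *Cd44* and 0.86 for *Lgals1*. *Ecel1* and *Flrt3* also had the most alike profiles over the 6 pools, with a root mean square distance of 0.28 between log2 CPM profiles centred on their means. The least alike were *Plaur* and *Plat*, at 1.61. Among 3359 other tested genes with a mean of at least 50 CPM, the profiles most like that of *Sprr1a* over the 6 pools were those of *S100a11* (distance 0.44), the predicted gene *Gm26658* (0.45), *Hspb1* (0.50), *Basp1* (0.55) and *Fabp5* (0.59). *S100a11* encodes a calcium-binding protein, *Hspb1* a small heat shock protein, *Basp1* a growth cone membrane protein and *Fabp5* a fatty acid-binding protein. *Hspb1*, for example, had 519.7, 1919.9 and 1647 CPM in double-labelled pools 1, 2 and 3, and 1956, 5790.4 and 2612 CPM in DiO-only pools 1, 2 and 3, the same high pool 2 in each group as for *Sprr1a*.

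**Figure D3:**
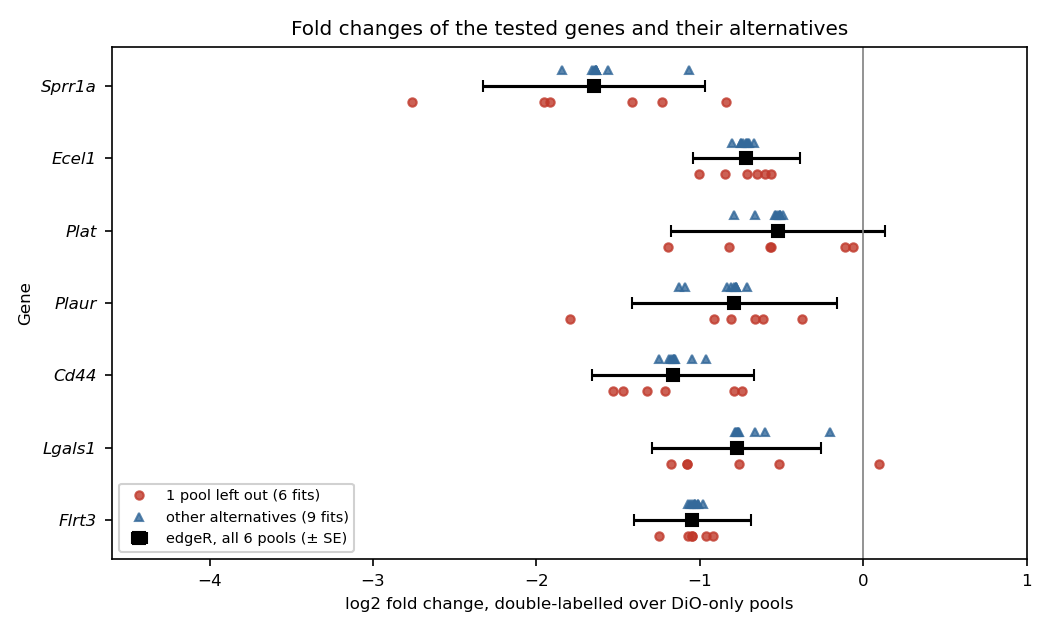
Log2 fold change of the 7 tested genes for double-labelled over DiO-only pools (horizontal axis), from edgeR on all 6 pools with its standard error (black squares), with 1 pool left out (red circles, 6 fits) and under the other alternatives (blue triangles, 9 fits). *Flrt3* moves least, from -1.25 to -0.92, *Ecel1* runs from -1.01 to -0.57, *Sprr1a* runs from -2.76 to -0.84, and *Lgals1* reaches 0.095 without DiO-only pool 2.

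Per kilobase of exon, levels spanned a wide range and kept nearly the same order in both groups. The order in double-labelled pools was *Sprr1a* at 2268 ± 2107 CPM per kilobase, *Lgals1* at 1024 ± 442, *Ecel1* at 143 ± 44.6, *Cd44* at 13.5 ± 7.37, *Flrt3* at 6.09 ± 0.155, *Plaur* at 5.37 ± 4.64, *Plat* at 2.80 ± 2.04, *Smagp* at 0.925 ± 1.37, *Nrn1* at 0.822 ± 1.42 and *Tgm1* at 0 (SD, n = 3). In DiO-only pools it was *Sprr1a* at 7101 ± 5213, *Lgals1* at 1751 ± 1362, *Ecel1* at 235 ± 40.1, *Cd44* at 30.3 ± 14.5, *Flrt3* at 12.6 ± 3.17, *Plaur* at 9.36 ± 1.72, *Nrn1* at 4.69 ± 7.80, *Plat* at 4.02 ± 1.88, *Smagp* at 2.34 ± 2.56 and *Tgm1* at 0.0362 ± 0.0628 CPM per kilobase. Neighbours in this order whose pools did not overlap in either group were *Lgals1* and *Ecel1*, and *Ecel1* and *Cd44*. *Sprr1a* and *Lgals1*, and *Cd44* and *Flrt3*, were apart in DiO-only pools and overlapped in double-labelled pools, and all neighbours below *Flrt3* overlapped except *Smagp* and *Tgm1* in DiO-only pools. With the length of the longest transcript *Plat* came before *Nrn1* in DiO-only pools.

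**Figure D4:**
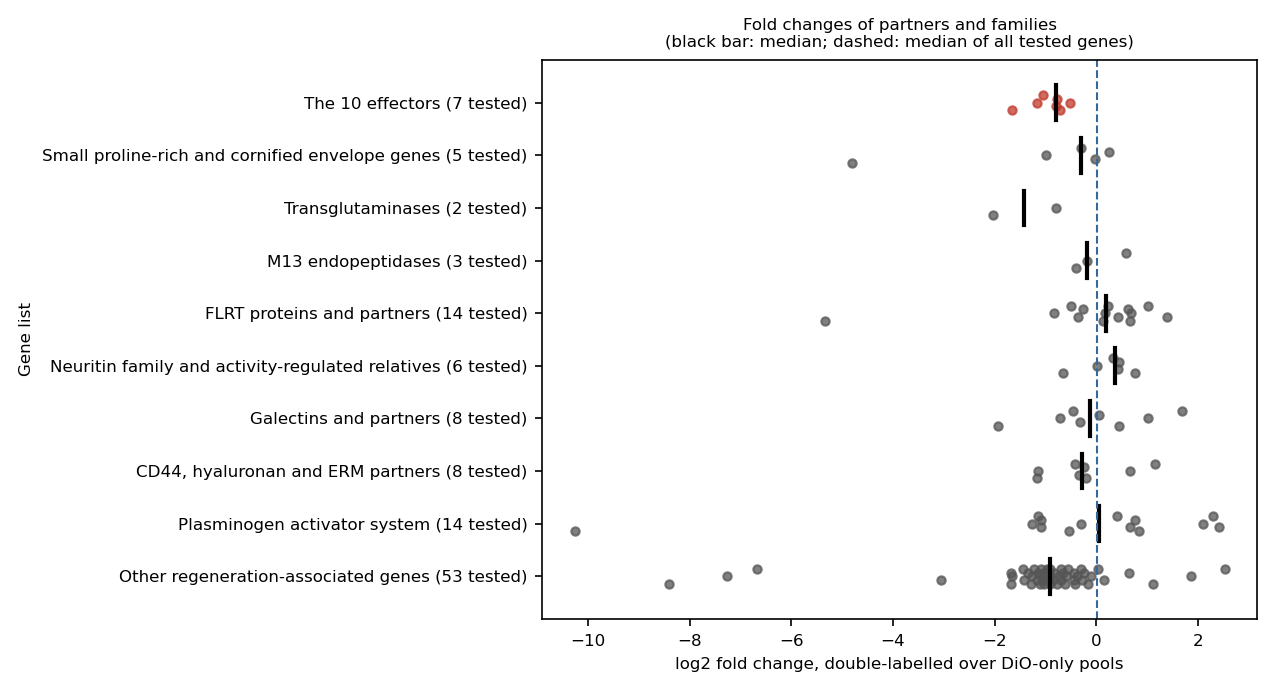
Log2 fold change for double-labelled over DiO-only pools (horizontal axis) of every tested gene in 9 lists of partners and families and, at the top in red, of the 7 tested effectors, with the median of each list as a black bar and the median of all tested genes as a dashed line. The fitted values of genes with 0 counts in all double-labelled pools, *Serpinb2* and *Cckbr*, are not bounds, and these genes passed the filter only through the DiO-only pools. Lists of partners spread on both sides of 0, and the other regeneration-associated genes have a median of -0.91.

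Genes of the wider injury response were also mostly lower in double-labelled pools. Of 60 other regeneration-associated genes 53 were tested, 47 below 0 and 6 above 0, with a median log2 fold change of -0.91, beside -0.79 for the 7 tested effectors, and 0 passed in edgeR. The lower level of such genes as a list was known from earlier results of these samples, so it is not independent evidence, and the difference between lists was not tested. *Atf3*, of a stress-induced transcription factor that acts with Jun, had 212, 575 and 645 CPM in double-labelled pools 1, 2 and 3, and 769.5, 1305 and 1116 CPM in DiO-only pools 1, 2 and 3 (edgeR adjusted p = 0.720). *Gap43* had 913, 1103 and 1144 CPM in double-labelled pools 1, 2 and 3, and 1965, 3081 and 1920.5 CPM in DiO-only pools 1, 2 and 3 (edgeR adjusted p = 0.616). Double-labelled pools also had fewer detected genes, higher oligodendrocyte markers and mostly higher astrocyte markers, as given above. The part of these differences in the values of the list was not tested. The genes of smallest p in this list with at least 5 CPM were *Tubb6* and *Anxa2* among the lower ones, and *Il6*, of a cytokine, and *Dpysl2*, of a growth cone phosphoprotein, among the higher ones. *Tubb6*, of a beta-tubulin, had 207 ± 31.7 CPM in double-labelled pools and 663 ± 206 CPM in DiO-only pools (SD, n = 3; edgeR adjusted p = 0.357). *Il6* had 26.5, 4.76 and 0 CPM in double-labelled pools 1, 2 and 3 and 1.79 ± 0.678 CPM in DiO-only pools (SD, n = 3), and *Dpysl2* had 476 ± 336 and 302 ± 108 CPM in double-labelled and DiO-only pools (SD, n = 3 each).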

How the data were processed

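PolyA RNA of picked, tracer-labelled motor neurons was amplified with the SMART-Seq HT kit, per the labels' protocols. The values are raw read counts per gene, as deposited by the authors. FastQC, HISAT2 and HTSeq and the mm10 build are listed in the submitters' processing notes, without a strand setting, a rule for shared reads or versions. The deposited single-library counts equalled those of the series table.

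Genes were filtered with filterByExpr by group in edgeR 4.0.16 (R 4.3.3), scaled with TMM factors and tested with the robust quasi-likelihood F-test, double-labelled against DiO-only pools, over 12954 genes, with p-values adjusted by the Benjamini-Hochberg method and called under 0.05. The script was tested on simulated data. Counts equal to 0 are read against a floor of 3 counts, for counting error only. Coordinates and exon lengths come from GENCODE M21 (99.8% of gene IDs matched) and promoter windows from RefSeq on GRCm38.p6.

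The genes and lists were chosen with earlier results of these data known. Besides the 10 genes, *Atf3* and *Gap43*, the text names up to 2 tested genes of at least 5 CPM with the smallest p in each direction per list, and the 5 profiles of at least 50 CPM nearest to *Sprr1a*. *Tchh*, *Plau*, *Plg*, *Vldlr*, *Eno1*, *Sprr2j-ps* and the single marker genes were named after their values were seen. Some partner genes stand in 2 lists. Alternatives were other scalings and filters, DESeq2 1.42.0, limma 3.58.1 voom with quality weights, a non-robust fit, a replicate block and leaving out each pool.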

Additional observations from a re-analysis of the deposited data

How the results depend on the processing

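In the 15 alternatives the log2 fold changes of *Sprr1a*, *Ecel1*, *Flrt3*, *Cd44*, *Plaur* and *Plat* stayed below 0, and that of *Lgals1* ran from -1.18 to 0.095 with 1 pool left out, above 0 without DiO-only pool 2. The 4 of 7 effectors lower at an unadjusted p under 0.05 became 6 of 10 with no filter, among them *Nrn1*, whose counts lay nearly all in pool 1 of each group. They became 5 of 7 with the replicate block, 4 of 7 with upper-quartile factors, and 3 of 7 with RLE factors, the stricter filter and the non-robust fit. DESeq2 had 3 of 9, total-count scaling and limma voom 2 of 7, and fits with 1 pool left out 1 to 4 of 7 to 9. *Ecel1* was above 0.05 with RLE factors, total-count scaling, the stricter filter, DESeq2 and the non-robust fit. The share of all genes lower at that level was 2.63% in the main fit and was not computed for the alternatives. The 2 of 7 effectors with groups that do not overlap became 1 of 7 with total-count scaling and with the stricter filter (10 counts in 5 pools), and 1 of 9 in DESeq2. With 1 pool left out they became 2 to 4 of 7 to 9, and 7 to 9 effectors had a log2 fold change below 0. Genes called over all tested genes numbered 79 with no filter and 75 in DESeq2, of which 9 and 7 stood in the lists of partners and regeneration-associated genes and 0 among the 10 effectors, and with 1 pool left out 0 genes were called. *Serpinb2* and *Tubb6* were among the called list genes both times. Of the other genes with values above, no filter added *Serpine2*, *Mmp9*, *Lgals3* and *Hspb1*, and DESeq2 added *Anxa2* and *Flrt2*. The cause of these changes was not tested. Pools of the 2 groups share replicate numbers. The labels speak of 3 batches of libraries but do not say that a number marks a batch, an animal or a day. The numbers were therefore not taken to pair pools in the main fit. The deviations of same-numbered pools had correlations of 0.0742, 0.228 and 0.203, and those of other pairs -0.190 to 0.0230. Each pool thus correlated best with its own number, a weak hint from the data and not the design. Deviations within a group sum to 0 for each gene, so these correlations are not independent of each other. With the replicate number as a block, edgeR called 23 genes, 5 in the lists (*Tubb6*, *Gal*, *Serpine2*, *S100a11* and *Serpinb2*, adjusted p 0.0253 to 0.0392) and 1 effector, *Sprr1a* (log2 fold change -1.85 ± 0.25, SE; adjusted p = 0.0243, against 0.775 without the block; lowest to highest adjusted p over the alternatives 0.0243 to 1.000). With 3 pools per group of few cells each, and a common biological coefficient of variation of 0.587, *Nrn1*, *Smagp* and *Tgm1* were too low in most pools to compare.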
